A study of Mus musculus with 8 samples.

Results

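The genes described here encode the conjugating enzymes of adenomas of the mouse small intestine: the glutathione transferases, the UDP-glucuronosyltransferases (UGTs) and the cytosolic sulfotransferases (SULTs). They were taken from the deposited sheet of normalised read counts as the symbols that start with Gsta, Gstm, Gstp, Gstt, Gsto, Gstk, Gstz, Mgst, Ugt1a, Ugt2 or Sult, without pseudogene symbols. Of 64 such symbols, 41 reached 10 in 4 or more of the 8 libraries, as did 17523 genes in all. The 41 genes are 23 glutathione transferases, 10 UGTs and 8 SULTs. Of the 23 symbols below the filter, 12 were listed at 0 in every library, among them Sult1e1, Ugt2a1 and every Sult2a gene from Sult2a1 to Sult2a7. Ugt2b38 also fell below it, with 143 and 35 in ApcMin/+ replicates 1 and 4 and at most 8 in the other 6 libraries.

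Conjugating enzymes make reactive or fat-soluble molecules easier to export. Glutathione transferases join the thiol of glutathione to electrophiles, UGTs add glucuronic acid from UDP-glucuronic acid in the endoplasmic reticulum, and SULTs add sulfate from the donor PAPS in the cytosol. In the small intestine these enzymes work mainly in absorptive epithelial cells, on food compounds, drugs, bilirubin, bile acids and hormones. Many glutathione transferase genes respond to the oxidative stress factor NRF2, while many UGT and SULT genes respond to nuclear receptors.

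RNA was sequenced from polyps of the small intestine in mice with the Min allele of Apc, a truncated form of this tumour suppressor that leads to intestinal adenomas. Knockout mice, ApcMin/+/14-3-3σ-/-, lacked both copies of Sfn, the gene of 14-3-3σ, and were 144 to 148 days old (n = 4). Their comparison group, ApcMin/+ mice with intact Sfn, was 256 to 282 days old (n = 4), so age and genotype cannot be told apart. All 8 mice had a C57BL/6 background, each gave 1 library, and the comparison asks how loss of 14-3-3σ changes the tumour transcriptome. A single knockout column has the mouse number of an ApcMin/+ animal in the labels. It is called the unnumbered knockout library, and knockout values are listed in the order unnumbered, 2, 3, 4, and ApcMin/+ values in the order 1 to 4.

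Sfn itself was at 1, 0, 0 and 1 in the knockout libraries and at 14607, 6585, 6989 and 15968 in the ApcMin/+ libraries (two-sided exact permutation p = 0.0286, the smallest p that 4 against 4 libraries allow). Normalised counts summed to between 36241013 and 38957213 in the knockout libraries and between 34182800 and 46707800 in the ApcMin/+ libraries, and raw depth is unknown. Xist RNA, which coats the inactive X chromosome, was above 1000 in the unnumbered knockout library and in ApcMin/+ replicates 2 and 3, and at 18 or below in the other 5 libraries. Ddx3y, a gene of the Y chromosome, was at 0, 0 and 2 in the Xist-high libraries and between 1435 and 2132 in the other 5. ApcMin/+ replicates 3 and 4 came from another sequencing order than the other 6 libraries. The normalisation by the authors removed the difference between the orders among ApcMin/+ libraries, so it was carried as a covariate in limma, which leaves fold changes as they are. Epithelial genes were high in every library: 9 epithelial markers, Epcam and Vil1 among them, summed to between 469836 and 574945 in the knockout libraries and between 431116 and 787865 in the ApcMin/+ libraries.

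None of the 41 conjugating enzyme genes passed an adjusted p of 0.05 in limma, over a background of 58 of 17523 genes (0.331%; 0.188% higher and 0.143% lower in the knockout). Robust limma also called 0 of them, as did limma with the removed direction not counted, where 426 genes were called (2.43%; 1.33% higher and 1.10% lower). At an unadjusted p under 0.05, limma placed 7 members lower and 0 higher, against 11.6% and 7.39% of all genes. Log2 differences, knockout minus ApcMin/+ on the log2(value + 1) scale, lay below 0 for 31 of 41 members, against 59.0% of all genes, with a median of -0.33 against -0.071 over all genes. That median was -0.29 in the 6 libraries of the shared sequencing order, -0.17 without ApcMin/+ replicate 1 and -0.14 without ApcMin/+ replicate 4. Counts by enzyme group follow, and no difference between the groups was tested. Glutathione transferases lay below 0 in 22 of 23 cases (median -0.41), UGTs in 5 of 10 (median -0.0048) and SULTs in 4 of 8 (median -0.023). Values of knockout and ApcMin/+ libraries were fully apart for 3 members, Gstm1, Gstm4 and Gsto2, all lower in the knockout, against 10.6% of all genes that were lower without overlap and 5.50% that were higher. These 3 genes are named for that pattern, after their values were seen. Gsto2, which is also among the 7 and the 22 above, met the filter mainly through the ApcMin/+ libraries. Its place in these counts is therefore partly fixed by the filter.

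**Figure D1:**
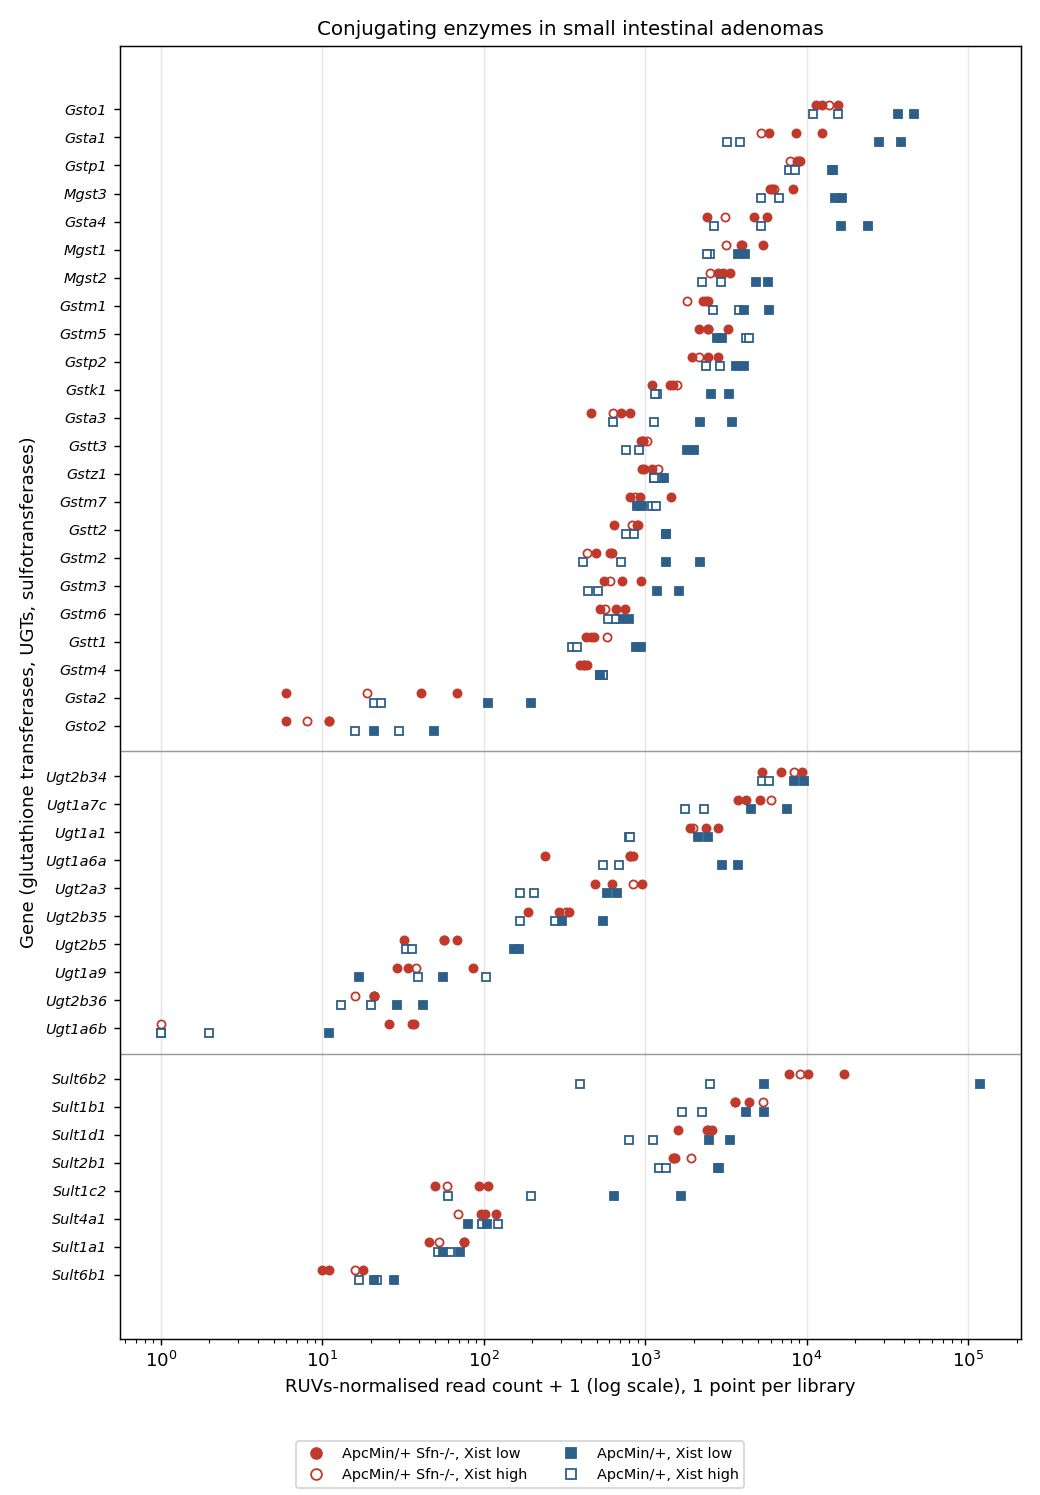
Normalised read count + 1 of the 41 genes on a log axis, with 1 point per library, circles for ApcMin/+/14-3-3σ-/- and squares for ApcMin/+, and open symbols for the 3 libraries with Xist above 1000. For most glutathione transferases the filled squares, ApcMin/+ replicates 1 and 4, stand apart to the right of the other 6 libraries. Gsto1 was at 46035 and 36944 in them and between 10953 and 15719 elsewhere.

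**Figure D2:**
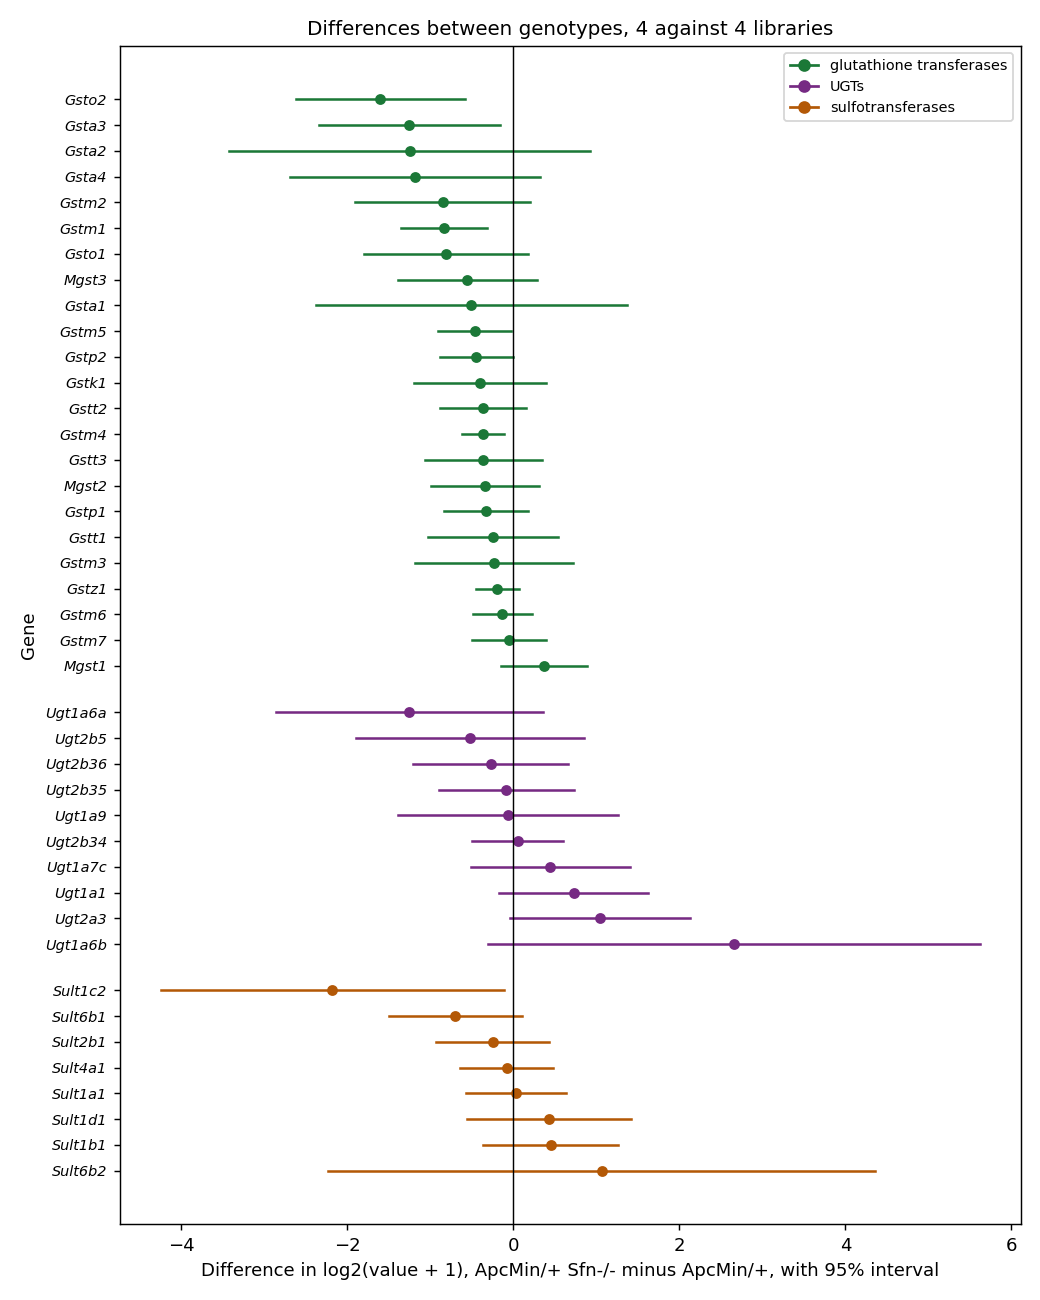
Difference in log2(value + 1) between ApcMin/+/14-3-3σ-/- and ApcMin/+ adenomas for each of the 41 genes, as limma estimates with 95% intervals, coloured by enzyme group. Of the 23 glutathione transferases, 22 points lie below 0, while UGTs and SULTs lie on either side.

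The alpha class genes lay below 0 in 4 of 4 cases, and ApcMin/+ replicates 1 and 4 were the highest libraries in each. Gsta1 (chromosome 9, 78230656 to 78242684, GRCm38), which detoxifies lipid peroxidation products, was at 5234, 8545, 5847 and 12539 in the knockout libraries and at 28006, 3223, 3858 and 38583 in the ApcMin/+ libraries. The knockout libraries lay above ApcMin/+ replicates 2 and 3 and below ApcMin/+ replicates 1 and 4, so the groups overlapped. Its mean was 8041 ± 3326 in the knockout and 18418 ± 17715 in ApcMin/+ adenomas (SD, n = 4 each), with a log2 difference of -0.51 (95% interval -2.38 to 1.37; limma adjusted p = 0.768). Without ApcMin/+ replicate 4 the difference was 0.11, and without replicate 2 it was -1.09. Divided by exon length, Gsta1 had a mean of 13838 normalised counts per kb over all libraries and Gsto1 10066 per kb, the highest means of the 41 genes. The order rests on single libraries: per kb, Gsto1 was above Gsta1 in the unnumbered knockout library and in ApcMin/+ replicates 2 and 3.

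Gsta4 (chromosome 9, 78182774 to 78209349), which conjugates the lipid peroxidation product 4-hydroxynonenal, was at 3113, 4733, 2407 and 5647 in the knockout libraries and at 24007, 2665, 5190 and 16228 in the ApcMin/+ libraries. The knockout libraries again sat near ApcMin/+ replicates 2 and 3, and the log2 difference was -1.19 (95% interval -2.69 to 0.32; limma adjusted p = 0.359), or -0.69 without ApcMin/+ replicate 1. Gsta3 (chromosome 1, 21240589 to 21265661), an alpha class enzyme, was at 633, 712, 461 and 810 in the knockout libraries and at 3438, 632, 1139 and 2192 in the ApcMin/+ libraries. ApcMin/+ replicate 2 lay within the knockout range and the other 3 ApcMin/+ libraries lay above it. The log2 difference of Gsta3 was -1.25 (95% interval -2.34 to -0.16; limma adjusted p = 0.221), and with each library left out it ran from -0.86 (adjusted p = 0.256) without ApcMin/+ replicate 1 to -1.68 (adjusted p = 0.0489) without ApcMin/+ replicate 2, where alone it passed. Gsta2 was low, at 18, 40, 5 and 67 in the knockout libraries and at 106, 20, 22 and 196 in the ApcMin/+ libraries (log2 difference -1.25, limma adjusted p = 0.498; -0.65 without ApcMin/+ replicate 4 and -0.59 without knockout replicate 3). Gsta1 shares 92.2% of the 31-base words of its transcripts with other genes and Gsta2 58.8%, so their values depend on how shared reads were counted, whereas Gsta4 shares none.

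Among the mu class, which conjugates epoxides and other electrophiles, Gstm1 and Gstm4 were lower in every knockout library. Gstm1 (chromosome 3, 108012255 to 108017973) was at 1804, 2434, 2396 and 2267 in the knockout libraries and at 5882, 2649, 3804 and 4093 in the ApcMin/+ libraries. Its log2 difference was -0.84 ± 0.23 (SE; limma adjusted p = 0.137), and with each library left out it ran from -0.64 (adjusted p = 0.126) without ApcMin/+ replicate 1 to -1.03 (adjusted p = 0.0327) without ApcMin/+ replicate 2, where alone it passed. Gstm4 (chromosome 3, 108040408 to 108044894) varied little within a genotype, at 415, 417, 394 and 434 in the knockout libraries and at 544, 522, 546 and 521 in the ApcMin/+ libraries. All 4 knockout values lay below all 4 ApcMin/+ values, with a log2 difference of -0.36 ± 0.11 (SE; limma adjusted p = 0.158). Gstm2 was at 435, 492, 602 and 626 in the knockout libraries and at 2177, 413, 710 and 1350 in the ApcMin/+ libraries, so that the knockout range was bracketed by ApcMin/+ replicates 2 and 3 (log2 difference -0.85, limma adjusted p = 0.346; -0.46 without ApcMin/+ replicate 1). Gstm5 went another way within ApcMin/+ adenomas: it was at 2465, 3279, 2145 and 2443 in the knockout libraries and at 2988, 4200, 4369 and 2799 in the ApcMin/+ libraries, with replicates 2 and 3 the higher ones (log2 difference -0.46, limma adjusted p = 0.248). Gstm3, Gstm6 and Gstm7 had log2 differences of -0.23, -0.13 and -0.053, and their libraries overlapped. All 7 mu class genes lie in a cluster on chromosome 3, and Gstm3 and Gstm1 share 37.7% and 30.4% of their 31-base words with other genes.

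Omega, pi, theta, kappa and zeta class genes also lay below 0. Gsto1 (chromosome 19, 47854970 to 47864790), a thiol transferase that reduces dehydroascorbate, was at 13722, 12455, 11378 and 15719 in the knockout libraries and at 46035, 10953, 15700 and 36944 in the ApcMin/+ libraries. Knockout libraries lay close to ApcMin/+ replicates 2 and 3, and replicates 1 and 4 stood far above them, with a log2 difference of -0.81 (95% interval -1.80 to 0.17; limma adjusted p = 0.340), or -0.49 without ApcMin/+ replicate 1. Its neighbour Gsto2 was near the filter, at 7, 5, 10 and 10 in the knockout libraries and at 48, 15, 29 and 20 in the ApcMin/+ libraries. The groups did not overlap, with a log2 difference of -1.60 ± 0.45 (SE; limma adjusted p = 0.138). This gene met the filter mainly through the ApcMin/+ libraries, so a lower knockout level is partly fixed by the filter.

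Gstp1, the pi class enzyme best known from tumours, was at 7887, 9060, 8674 and 8978 in the knockout libraries and at 14279, 7805, 8506 and 14473 in the ApcMin/+ libraries. The knockout libraries were alike and close to the lower pair of ApcMin/+ libraries (log2 difference -0.33, limma adjusted p = 0.449; -0.19 without ApcMin/+ replicate 1 or without replicate 4). Gstp2 differed by -0.45 (limma adjusted p = 0.259). Gstp1 shares 57.8% of its 31-base words with Gstp2, and the coding sequences of 630 bases differ at 12 positions, so reads can be split between them. Gstt1, Gstt2 and Gstt3 of the theta class differed by -0.24, -0.37 and -0.36, Gstk1 of mitochondria and peroxisomes by -0.41, and Gstz1, a step of tyrosine breakdown, by -0.19. Adjusted p in limma ranged from 0.394 to 0.734 for these 5 genes.

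The microsomal transferases are membrane proteins of another fold. Mgst3 was at 6248, 6069, 5973 and 8262 in the knockout libraries and at 16612, 5237, 6725 and 14885 in the ApcMin/+ libraries, the pattern of Gsto1 (log2 difference -0.55, limma adjusted p = 0.439). Mgst2, which can make leukotriene C4, differed by -0.34. Mgst1 was the only glutathione transferase with a log2 difference above 0. It was at 3182, 3970, 5366 and 3914 in the knockout libraries and at 3748, 2512, 2422 and 4176 in the ApcMin/+ libraries (0.37, 95% interval -0.15 to 0.88; limma adjusted p = 0.403).

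Summed over the 23 genes, glutathione transferase counts were 57078, 65729, 57194 and 74210 in the knockout libraries and 168474, 52025, 65466 and 156976 in the ApcMin/+ libraries. The means were 63553 ± 8179 in the knockout and 110735 ± 60465 in ApcMin/+ adenomas (SD, n = 4 each), a ratio of 0.574 that rests on ApcMin/+ replicates 1 and 4. In 31 of the 41 members, both of these libraries were above ApcMin/+ replicates 2 and 3, a pattern seen in 36.4% of all genes. In 21 members, 16 of them glutathione transferases, they were also above every knockout library, against 21.6% of all genes. The spread between libraries was smaller in the knockout. The SD of log2 values had a median of 0.31 over members in the knockout and 0.76 in ApcMin/+ adenomas, and it was smaller in the knockout for 33 of 41 members and for 10830 of 17523 genes. The medians over all genes were 0.19 in the knockout and 0.25 in ApcMin/+ adenomas.

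**Figure D3:**
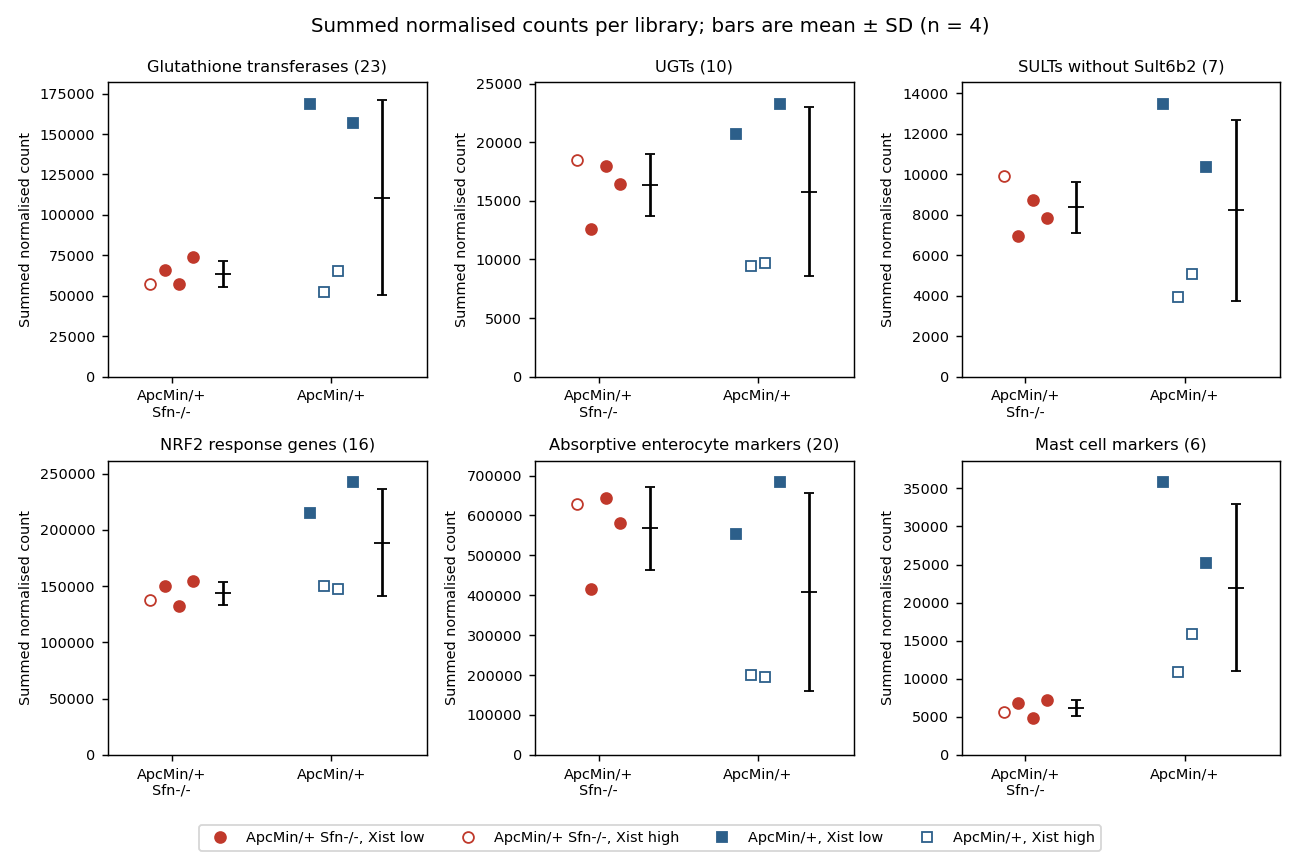
Summed normalised counts per library for the 3 enzyme groups (without Sult6b2), 16 NRF2 response genes, 20 absorptive enterocyte markers and 6 mast cell markers, with ApcMin/+/14-3-3σ-/- left of ApcMin/+, open symbols for Xist-high libraries and bars for mean ± SD (n = 4). Glutathione transferase sums of the knockout, 57078 to 74210, lie close to the lower pair of ApcMin/+ libraries, 52025 and 65466, whereas UGT and enterocyte sums of the knockout lie above that pair.

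Of the 5 UGTs with the highest counts, 4 had log2 differences above 0 and Ugt1a6a below it. Ugt2b34 (chromosome 5, 86889767 to 86906937), the UGT with the highest count, was at 8385, 5328, 9344 and 6951 in the knockout libraries and at 9616, 5306, 5885 and 8360 in the ApcMin/+ libraries. The groups overlapped fully, with a log2 difference of 0.052 (95% interval -0.50 to 0.60; limma adjusted p = 0.929), and its sign turned without ApcMin/+ replicate 2 or 3, knockout replicate 3 or the unnumbered knockout library. Ugt1a1 (chromosome 1, 88211959 to 88218997), which conjugates bilirubin, was at 1987, 1885, 2818 and 2386 in the knockout libraries and at 2131, 798, 805 and 2461 in the ApcMin/+ libraries. Here the knockout libraries lay beside ApcMin/+ replicates 1 and 4 and above replicates 2 and 3 (log2 difference 0.72, 95% interval -0.17 to 1.62; limma adjusted p = 0.347; 0.47 without ApcMin/+ replicate 2 and 0.48 without replicate 3). Ugt1a7c was at 6020, 3742, 4198 and 5115 in the knockout libraries and at 4519, 2311, 1772 and 7551 in the ApcMin/+ libraries, the same placing of the knockout (log2 difference 0.45, limma adjusted p = 0.589; 0.13 without ApcMin/+ replicate 3 and 0.83 without replicate 4).

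Ugt2a3 (chromosome 5, 87324972 to 87337195), an intestinal and hepatic UGT, was at 837, 491, 958 and 619 in the knockout libraries and at 670, 167, 203 and 582 in the ApcMin/+ libraries. Its log2 difference of 1.05 (95% interval -0.037 to 2.13; limma adjusted p = 0.276) came with ApcMin/+ replicates 1 and 4 inside the knockout range. Ugt1a6a, a UGT of small phenols, was at 802, 845, 240 and 807 in the knockout libraries and at 3005, 550, 687 and 3751 in the ApcMin/+ libraries. It followed the placing of the glutathione transferases, with a log2 difference of -1.25 (95% interval -2.86 to 0.36; limma adjusted p = 0.366), or -0.79 without ApcMin/+ replicate 4 and -0.81 without knockout replicate 3. The other UGTs were low: Ugt2b35, Ugt2b5, Ugt1a9 and Ugt2b36 averaged between 18.8 and 285.8 in the knockout and between 25.0 and 323 in ApcMin/+ adenomas.

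Ugt1a6b, the near copy of Ugt1a6a, was at 0, 25, 36 and 35 in the knockout libraries and at 0, 1, 0 and 10 in the ApcMin/+ libraries. The libraries with 25 or more were knockout replicates 2, 3 and 4, and the log2 difference was 2.66 (95% interval -0.31 to 5.62; limma adjusted p = 0.306). Ugt1a6b met the filter mainly through the knockout libraries, so a higher knockout level is partly fixed by the filter. Ugt1a genes have a first exon each and share their last exons, and the rows of the Ugt1a locus overlap on chromosome 1. Ugt1a6a shares 96.8% of its 31-base words with other genes, Ugt1a6b 84.2%, Ugt1a1 58.5% and Ugt1a7c 56.1%. The coding sequences of Ugt1a6b and Ugt1a6a, of 1593 bases each, differ at 26 positions and are identical over the last 774 bases. The 60 coding bases that differ most are shown because they mark what tells these neighbours apart in the reads, as given by GENCODE on GRCm38 (plus strand, chr1:88107237-88107296 for Ugt1a6b and chr1:88138769-88138828 for Ugt1a6a), with the 9 differing bases in capitals.
Ugt1a6b: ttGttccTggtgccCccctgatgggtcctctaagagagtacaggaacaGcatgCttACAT
Ugt1a6a: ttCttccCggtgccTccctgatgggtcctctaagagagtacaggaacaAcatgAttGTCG
How the authors assigned reads of shared exons is not given in the sources used here, so the values of single Ugt1a rows are uncertain.

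Among SULTs, Sult1c2 and Sult6b2 had the largest log2 differences, in opposite directions. Sult1c2 (chromosome 17, 53829637 to 53846339), a sulfotransferase of small phenols, was at 58, 92, 49 and 106 in the knockout libraries and at 1657, 59, 196 and 636 in the ApcMin/+ libraries. All knockout libraries were low, ApcMin/+ replicate 2 was as low as they were, and the log2 difference was -2.18 (95% interval -4.25 to -0.12; limma adjusted p = 0.248), or -1.41 without ApcMin/+ replicate 1. Sult6b2 (chromosome 6, 142785204 to 142804502) was at 9113, 10163, 7725 and 17043 in the knockout libraries and at 5422, 2514, 396 and 117778 in the ApcMin/+ libraries. ApcMin/+ replicate 4 stood far above every other library and the remaining 3 ApcMin/+ libraries below all knockout libraries. The mean was therefore lower in the knockout, 11011 ± 4143 against 31528 ± 57537 in ApcMin/+ adenomas (SD, n = 4 each), while the log2 difference was 1.06 (95% interval -2.23 to 4.36; limma adjusted p = 0.718). Without ApcMin/+ replicate 3 the log2 difference was -0.16, and without replicate 4 it was 2.58.

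Sult1b1 (chromosome 5, 87513339 to 87538195), which sulfates phenols and thyroid hormones, was at 5400, 3584, 4379 and 3579 in the knockout libraries and at 5456, 1688, 2250 and 4195 in the ApcMin/+ libraries. Sult1d1, its neighbour on chromosome 5, which sulfates catecholamines in mice, was at 2421, 1607, 2589 and 2440 in the knockout libraries and at 3352, 795, 1120 and 2494 in the ApcMin/+ libraries. In either gene ApcMin/+ replicates 2 and 3 were the lowest libraries, and the log2 differences were 0.45 and 0.43 (limma adjusted p = 0.514 and 0.615). Without ApcMin/+ replicate 2 they were 0.17 and 0.079, and without replicate 1 they were 0.73 and 0.77. Sult2b1, a cholesterol sulfotransferase, was at 1914, 1508, 1497 and 1533 in the knockout libraries and at 2822, 1225, 1349 and 2847 in the ApcMin/+ libraries (log2 difference -0.25, limma adjusted p = 0.673). Sult4a1, Sult1a1 and Sult6b1 were low, with log2 differences of -0.079, 0.034 and -0.70.

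The genotype difference was then read within each Xist class. In the 5 libraries with low Xist, 3 knockout and 2 ApcMin/+, 19 of 41 members were lower in the knockout at a limma adjusted p under 0.05 and 0 were higher, against 8.45% and 4.07% of all genes in the same fit. The ApcMin/+ libraries of this class are replicates 1 and 4 alone, the higher pair in 31 of 41 members as given above, so these calls restate that pattern and are no separate support. The 19 were 15 glutathione transferases, 2 UGTs and 2 SULTs. Among them were Gsto1 (-1.66, adjusted p = 0.00718), Gstt3 (-0.98, adjusted p = 0.00775), Gsta3 (-2.09, adjusted p = 0.00942), Gsta4 (-2.30, adjusted p = 0.0135), Gsta1 (-1.94, adjusted p = 0.0149) and Ugt1a6a (-2.62, adjusted p = 0.0224) in limma. Ugt1a1 and Ugt2a3 were at 0.026 and 0.086 there. In the 3 libraries with high Xist, 1 knockout and 2 ApcMin/+, the knockout is not replicated, and values are given without a test. There the log2 difference was 0.57 for Gsta1, 0.065 for Gsto1, -0.26 for Gsta4 and -0.42 for Gsta3, and it was 1.31 for Ugt1a1, 2.18 for Ugt2a3 and 1.47 for Sult1b1. The median over glutathione transferases was -0.98 in the Xist-low and -0.047 in the Xist-high libraries, while over all genes it was -0.13 and 0.0046. Whether the classes differ was not tested, and with 1 knockout library in the Xist-high class the class, the animal and the genotype cannot be told apart.

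**Figure D4:**
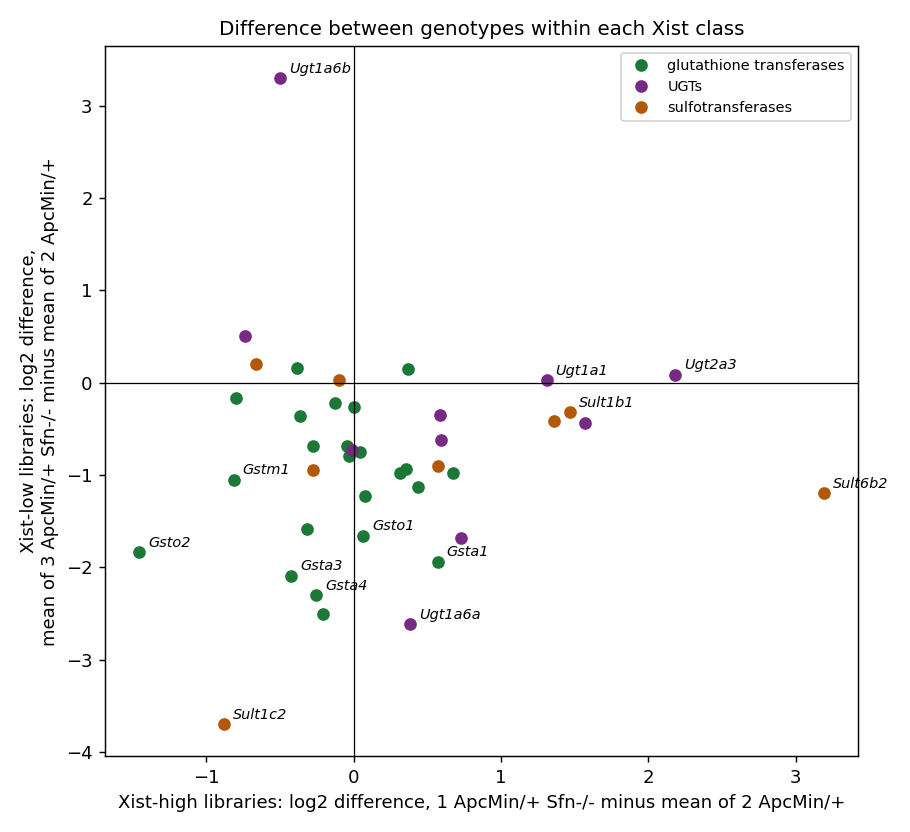
Log2 difference between ApcMin/+/14-3-3σ-/- and ApcMin/+ adenomas within the 3 Xist-high libraries (horizontal axis) and within the 5 Xist-low libraries (vertical axis), with 1 point per gene coloured by enzyme group. Glutathione transferases lie below 0 in 21 of 23 cases on the vertical axis and in 14 of 23 on the horizontal axis, while Ugt1a1 and Ugt2a3 lie near 0 on the vertical axis and above 1 on the horizontal axis.

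Genes that supply, sense or export conjugates were read from lists chosen by function. Of 9 tested genes for other conjugating and related enzymes, Ephx1 passed. Ephx1, the microsomal epoxide hydrolase that turns epoxides into diols, was at 581, 719, 539 and 815 in the knockout libraries and at 1533, 1548, 1820 and 1293 in the ApcMin/+ libraries. The groups did not overlap, replicates 2 and 3 of ApcMin/+ were as high as replicates 1 and 4, and the gene fell by 1.23 on the log2 scale (limma adjusted p = 0.0294). Of 19 alternative settings, Ephx1 kept its call in 12, with adjusted p from 0.00943 to 0.104 and log2 differences from -1.34 to -1.05. The limma adjusted p was 0.0910 without the unnumbered knockout library, 0.0723 without knockout replicate 2 and 0.104 without knockout replicate 3. It was 0.0520 and 0.0573 under median-ratio and quantile scaling, 0.0537 with the Xist class as a covariate and 0.0924 in the 6 libraries of the shared sequencing order. As3mt, the arsenite methyltransferase gene, differed by -0.37 (limma adjusted p = 0.238).

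NRF2 response genes resembled the glutathione transferases in the placing of their sums, but not in every gene. Hmox1 and Blvrb, for example, were higher in ApcMin/+ replicate 2 than in replicate 1. Of 16 NRF2 response genes tested, 0 passed and 16 lay below 0, against 59.0% of all genes. Their median was -0.46, against -0.071 over all genes. Their sums were between 132653 and 154599 in the knockout libraries, against 150368 and 147203 in ApcMin/+ replicates 2 and 3 and 215342 and 242288 in replicates 1 and 4. Aldh3a1, an aldehyde dehydrogenase gene, was at 24, 20, 41 and 32 in the knockout libraries and at 482, 48, 173 and 104 in the ApcMin/+ libraries (log2 difference -2.30, limma adjusted p = 0.138). Cbr3, a carbonyl reductase gene, was at 68, 125, 81 and 146 in the knockout libraries and at 1598, 99, 289 and 644 in the ApcMin/+ libraries (log2 difference -2.04, limma adjusted p = 0.212).

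None of the other 7 lists had a gene that passed in the fit of all 8 libraries. The 10 tested genes of glutathione supply had a median log2 difference of -0.17, with the glutathione synthetase gene Gss at -0.45 and Cbs at -0.51. The 8 genes of UDP-sugar supply had a median of 0.029, with Ugp2 at 0.24 and the nucleotide sugar transporter gene Slc35d1 at -0.29. The 8 genes of sulfate donor supply had a median of -0.062, with the sulfate transporter gene Slc26a2 at -0.47 and the anion exchanger gene Slc26a3 at 0.26. Among 9 efflux pumps (median 0.12), Abcc2 and Abcc3, which export conjugates at the apical and the basolateral membrane, were at 0.55 and -0.63. Abcc3 was at 2865, 2832, 3014 and 4271 in the knockout libraries and at 9088, 2385, 2706 and 10205 in the ApcMin/+ libraries. Sensors and gut factors had a median of -0.019 over 17 genes, with Ppara at 1.16 and the xenobiotic receptor gene Nr1i3 at 0.57, and Nfe2l2, which encodes NRF2, at -0.20. Bach1 and Ahr of this list were higher in the knockout without overlap, at 0.49 and 0.24, as were 5.50% of all genes. Keap1 was lower without overlap, at -0.19, as were 10.6% of all genes. Of 3 genes that respond to the aryl hydrocarbon receptor, Cyp1b1 and Cyp1a1 were at 1.20 and 1.29. Cyp1a1 was low and uneven, at 270, 23, 44 and 24 in the knockout libraries and at 80, 4, 4 and 99 in the ApcMin/+ libraries. In the Xist-low libraries alone the 2 genes went opposite ways. Cyp1a1 was at -1.58 there (limma adjusted p = 0.0388) and Cyp1b1 at 1.74 (limma adjusted p = 0.0157). Of 3 genes listed under reversal of conjugates, the arylsulfatase genes Arsa and Arsb were at -0.19 and -0.22. Whether these act on products of the SULTs was not tested. In the fit of all 8 libraries, limma adjusted p was 0.137 or above for every gene of these 7 lists.

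Sums of cell type markers are given beside these values. The 20 absorptive enterocyte markers summed to between 415237 and 643001 in the knockout libraries. In the ApcMin/+ libraries they summed to 554608, 199321, 196374 and 682762, so replicates 2 and 3 were the low ones. That order, replicates 1 and 4 above 2 and 3, was also that of 31 of the 41 members. These were 18 glutathione transferases, 8 UGTs and 5 SULTs. In the knockout, 3 of 4 libraries, all but replicate 2, had enterocyte sums between those of ApcMin/+ replicates 1 and 4. Apoa1 or Apoa4 was the largest part of the sum in every library. Of these 20 markers, 2 lay below 0, Alpi and Slc2a5, and the median log2 difference was 0.66. Sis was at 27473, 29220, 42778 and 21234 in the knockout libraries. In the ApcMin/+ libraries it was at 12312, 2662, 4571 and 6806 (log2 difference 2.37, limma adjusted p = 0.0817). Sis and Enpep were higher in the knockout without overlap, as were 5.50% of all genes, and the other markers overlapped. The 8 stem cell and adenoma markers summed to between 49915 and 54307 in the knockout libraries and to 38214, 65213, 60104 and 38706 in the ApcMin/+ libraries, with replicates 2 and 3 the high ones. The 8 enteroendocrine markers summed to between 1438 and 2046 in the knockout libraries and to 4141, 1780, 2188 and 3827 in the ApcMin/+ libraries. Replicates 1 and 4 were the high ones, the same order as for the enterocyte markers. The 7 goblet cell markers summed to between 237220 and 294683 in the knockout libraries and between 137818 and 411577 in the ApcMin/+ libraries. Mast cell markers (6 of 6 measured) summed to between 4862 and 7255 in the knockout libraries and between 10887 and 35785 in the ApcMin/+ libraries. The 7 tuft cell markers summed to between 9775 and 12631 in the knockout libraries and between 13961 and 16320 in the ApcMin/+ libraries. Avil was the largest part of the tuft sum in every library, and 5 of 5 tested tuft markers lay below 0. Pou2f3 averaged 36.75 in the knockout and 145.5 in ApcMin/+ adenomas, and Sh2d7 averaged 48 and 174.5. The 6 Paneth cell markers summed to between 69645 and 106640 in the knockout libraries and between 31936 and 66352 in the ApcMin/+ libraries. Lyz1 was the largest part of that sum in every library of the knockout, and Ang4 of the same list lay the other way without overlap, at 427, 544, 242 and 289 in the knockout libraries and at 2774, 730, 2430 and 643 in the ApcMin/+ libraries. The 8 fibroblast markers summed to between 41675 and 84070 in the knockout libraries and between 28866 and 40213 in the ApcMin/+ libraries. None of these 8 lists had a gene that passed, and no marker was at 0 in every library. The part of cell composition in the enzyme values was not tested, and fewer cells of a type and less RNA per cell cannot be told apart in bulk samples. Of 6 hepatocyte genes, Fgb was at 104 and Serpina1a at 47 in the unnumbered knockout library, and at most 1 and 3 elsewhere. Apoh, Ttr and Cyp2e1 were not highest in that library. Apoh was at 36 there and at 64 and 73 in ApcMin/+ replicates 2 and 3. Ttr and Cyp2e1 were at 335 and 9 there and at 692 and 15 in ApcMin/+ replicate 1. Alb was between 563 and 3522 in the knockout libraries and between 910 and 1963 in the ApcMin/+ libraries. The 6 proximal small intestine markers summed to 31022, 25504, 17690 and 50737 in the knockout libraries. In the ApcMin/+ libraries they summed to 30798, 22639, 18013 and 72273. Replicate 4 was the highest library of each genotype, as it was for Sult6b2. The 6 distal markers summed to between 1692 and 2576 in the knockout libraries and between 1353 and 2570 in the ApcMin/+ libraries. Neither list had a gene that passed, and the part of gut position was not tested.

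Promoter windows from RefSeq (GRCm38.p6, 250 bases before to 50 after the start) were found for 37 of 41 members, 48 windows in all. Searched on either strand, the antioxidant response element core TGACNNNGC was in 4 of the 48 member windows, against 12.4% of all 32851 windows. They belong to 4 members, Gsta3, Gstm5, Gstm7 and Mgst1. These 4 genes had log2 differences of -1.25, -0.46, -0.053 and 0.37. The letters GCGTG, the core bound by the aryl hydrocarbon receptor, were in 11 of the 48 member windows, from 9 members, against 32.4% of all windows. CAAAGTCCA, an HNF4 site, was in 1 of the 48, that of Sult1b1, against 0.475% of all windows. A match in a window is a description of its letters. The window of Gsta3, whose knockout values lay low, is printed 5′ to 3′ on the strand of the gene with the matched letters in capitals (chr1:21240335-21240634, plus strand).
Gsta3: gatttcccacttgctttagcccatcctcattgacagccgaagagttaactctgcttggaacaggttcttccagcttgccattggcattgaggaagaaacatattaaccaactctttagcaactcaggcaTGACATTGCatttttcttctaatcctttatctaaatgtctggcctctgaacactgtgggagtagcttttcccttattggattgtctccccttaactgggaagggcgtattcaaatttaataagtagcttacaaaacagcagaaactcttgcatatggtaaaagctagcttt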

How the data were processed

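RNA-seq of 8 adenomas was used, 1 per mouse, from strand-specific Illumina libraries of total RNA, per the labels' protocols. The authors deposited 1 sheet of 48440 gene rows, a score per gene and library: read counts after RUVs, which subtracts unwanted variation estimated within replicate sets, rounded to whole numbers, per the file headers. Per the submitters' processing notes the genome was mm10. Aligner, counter, annotation and RUVs settings: not given in the sources used here. Because the values are no longer counts, count models were not used, and no counting interval is given.

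Left out were 27 rows whose names had become dates, and 0 columns belonged to other samples. Genes that reached 10 in 4 or more libraries, 17523 in all, were tested with limma 3.58.1 in R 4.3.3 (trended eBayes) on log2(value + 1), a scale that understates changes of low genes, with Benjamini and Hochberg adjustment at 0.05. Singular values of deviations from genotype means on 12052 genes with every value at 100 or above ran from 53.8 to 0.0954. A direction under 0.1 of the largest, 1 of 6, had been removed by the normalisation and entered as a covariate, leaving 5 residual degrees of freedom. Libraries normalised among replicates are not independent, so p-values can be too small. The labels give mouse numbers and no shared replicate numbers. The model was tested on simulated data, with noise drawn at the same SD for both genotypes. The members varied more in ApcMin/+ adenomas, so that test does not cover their uneven spread.

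Members and lists were chosen with earlier results of these data known, so they are no independent evidence. Values in every library are given for the 3 members of each enzyme group with the highest mean, and for the 6 largest log2 differences in each direction among members with a mean of at least 50. Of each pathway list, genes that passed and the 2 largest differences among genes with a mean of at least 50 are named. Nfe2l2, Bach1, Ahr, Keap1, Hmox1 and Blvrb are named outside this rule, with their values known. Other members given in full were chosen after their values were seen. Positions, exon lengths (union of exons) and 31-base words of coding transcripts come from GENCODE M21 (GRCm38, which mm10 also names). Alternatives were pseudocounts of 0.5 and 5, other filters, median-ratio and quantile scaling, other covariates, subsets of libraries and leaving out each library. A transcription factor and the promoter matches that rest on it are not reported here.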

Additional observations from a re-analysis of the deposited data

Results flagged for a closer look

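In 7 of 82 groups of 4 libraries, a single library stood apart from the other 3 by Dixon's 95% criterion on the normalised counts, and chance flags about 1 in 20 groups. Sult6b2 was at 117778 in ApcMin/+ replicate 4, against 396 to 5422 in the other ApcMin/+ libraries. Ugt1a6a was at 240 in knockout replicate 3, against 802 to 845 in the other knockout libraries. Mgst3 was at 8262 in knockout replicate 4, against 5973 to 6248. Sult2b1 was at 1914 in the unnumbered knockout library, against 1497 to 1533. The other 3 are low genes. Ugt1a9 was at 85 in knockout replicate 4, Ugt2b36 at 15 in the unnumbered knockout library, where the other 3 were at 20, and Ugt1a6b at 10 in ApcMin/+ replicate 4.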

How the results depend on the processing

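No paired analysis was possible because the labels give the mice no shared replicate numbers. Of the members in each fit (35 of 41 with the filter at 50), 0 were called higher in the 19 alternatives, and 0 lower in all but the 5 Xist-low libraries (19) and the fit without ApcMin/+ replicate 2, so leaving out a library gave 0 to 2. The median of the members kept its sign, between -0.48 and -0.14 when a library was left out and -0.75 in the Xist-low libraries. The number of all genes called was 426 with the removed direction not counted, 16 in the shared sequencing order and 2194 in the Xist-low libraries, and 21 to 346 when a library was left out. Genes called in the pathway lists were 0 under median-ratio scaling, quantile scaling, the Xist covariate and the shared order, 25 in the Xist-low libraries and 0 to 5 when a library was left out. For Sfn in the shared order the exact permutation p was 0.0667, the smallest 6 libraries allow, at -12.76. In the Xist-low libraries the sign turned for Sult1b1 (-0.32), Sult1d1 (-0.42), Sult6b2 (-1.20), Ugt1a7c (-0.44), Ugt2b34 (-0.35), Abcc2 (-0.56), Cyp1a1 (-1.58), Nr1i3 (-0.34), Slc26a3 (-0.36) and Ugp2 (-0.058). It also turned for Ugt2b34 with the Xist covariate (-0.018) and, when a library was left out, for Ugt2b34 (range -0.086 to 0.21; below 0 without ApcMin/+ replicate 2 or 3, the unnumbered knockout library or knockout replicate 3), Sult6b2 (-0.16 without ApcMin/+ replicate 3 to 2.58 without replicate 4) and Gsta1 (-1.09 without ApcMin/+ replicate 2 to 0.11 without replicate 4). The cause was not tested. Genes with values near 10, such as Gsto2 and Ugt1a6b, are limited by their low counts.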
